A study of Mus musculus with 12 samples.

Results

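Heme synthesis was followed through 9 genes: the enzymes Alas2, Alad, Uros, Urod, Cpox, Ppox and Fech, and the mitochondrial membrane transporters Abcb10 and Slc25a37. They were taken from the deposited gene count table by name, and all 9 were found among its 23358 genes. All 9 also passed the filter on low counts, which left 16190 genes for testing. The set was chosen by pathway with the genotype and strain differences of these same counts in view. Counts of members past a threshold are therefore descriptions, set beside the share of all genes past that threshold. Tissue was the frontal bone of mice at postnatal day 3, taken with the nasal bone, the coronal suture and the frontonasal suture. There were 4 groups of 3 samples: wild type C57BL/6, heterozygous Fgfr2 C342Y mutant C57BL/6, wild type BALB/c and heterozygous Fgfr2 C342Y mutant BALB/c. The mutation models Crouzon syndrome, a disorder of premature suture fusion, and every mutant carried it beside a wild type copy of Fgfr2. Before RNA extraction all tissue had been digested in 2 mg/ml collagenase with 0.05% trypsin. The labels give no sex and do not say whether each sample came from a separate animal, so p-values measure the spread between these samples only.

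Heme is the iron-holding ring of hemoglobin, of the cytochromes and of catalase. Its synthesis starts in the mitochondrion, where an ALA synthase joins glycine to succinyl-CoA. Most cells use the synthase encoded by Alas1, and developing red cells use the one encoded by Alas2. The product is carried into the cytosol, where Alad, Uros and Urod act in turn, and the pathway returns to the mitochondrion for Cpox, Ppox and Fech, which inserts iron. Slc25a37 (mitoferrin 1) brings iron across the inner mitochondrial membrane of red cell precursors, and Abcb10 is an inner membrane transporter needed for normal heme production in those cells. Erythroblasts, the red cell precursors, make by far the most heme, and young bone holds marrow in which they mature.

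The letters just before the start site differed between members. The 250 bases upstream of the RefSeq start (GRCm38.p6) were available for 7 of the 9 members. Fech and Slc25a37 had no entry. The letters AGATAA, a form of the site that GATA factors recognise, and CACCC, the core of the box recognised by KLF factors, were searched on both strands. Other forms of the GATA site were not searched. The lines below show the red cell synthase Alas2, the general synthase Alas1 for contrast, Cpox with the most CACCC matches of the 7, and Ppox with none. Each runs 5′ to 3′ along the gene's own strand, with AGATAA and CACCC matches on either strand in capitals.
Alas2, chrX:150547167-150547416, plus strand: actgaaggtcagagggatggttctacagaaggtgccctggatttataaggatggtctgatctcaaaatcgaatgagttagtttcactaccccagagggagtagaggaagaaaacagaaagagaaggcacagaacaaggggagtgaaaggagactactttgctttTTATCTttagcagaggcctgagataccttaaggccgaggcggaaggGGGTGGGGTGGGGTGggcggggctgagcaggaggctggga
Alas1, chr9:106247955-106248204, minus strand: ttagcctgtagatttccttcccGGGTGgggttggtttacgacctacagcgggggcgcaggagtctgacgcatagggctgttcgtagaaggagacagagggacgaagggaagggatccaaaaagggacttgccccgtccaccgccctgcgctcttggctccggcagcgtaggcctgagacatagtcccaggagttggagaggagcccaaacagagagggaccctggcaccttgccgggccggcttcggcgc
Cpox, chr16:58669958-58670207, plus strand: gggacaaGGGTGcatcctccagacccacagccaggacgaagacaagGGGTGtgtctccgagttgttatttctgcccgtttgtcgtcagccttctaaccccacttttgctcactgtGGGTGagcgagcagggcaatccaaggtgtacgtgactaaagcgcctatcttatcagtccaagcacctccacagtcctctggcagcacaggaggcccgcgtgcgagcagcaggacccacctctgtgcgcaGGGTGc
Ppox, chr1:171281187-171281436, minus strand: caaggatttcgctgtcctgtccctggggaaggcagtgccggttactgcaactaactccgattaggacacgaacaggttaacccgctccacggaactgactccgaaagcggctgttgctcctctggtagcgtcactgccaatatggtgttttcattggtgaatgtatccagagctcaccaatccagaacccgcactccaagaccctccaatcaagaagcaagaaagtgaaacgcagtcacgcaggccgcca
Alas2 held AGATAA 86 bases upstream of its start, on the strand opposite to the gene, where it reads TTATCT. It was the only one of the 7 members with exactly these letters, which 9.99% of 32851 RefSeq promoter windows of the same length held. Its 3 CACCC matches began 40, 35 and 30 bases upstream, and a GGGCGG match (GC box) overlapped the last of them. Cpox held 4 CACCC matches, Abcb10 held 1, and Alad, Uros, Urod and Ppox held 0. CACCC is common, with 52% of all windows holding it. GGGCGG occurred 2 times in Alad and 1 time each in Alas2, Uros and Urod, against 32.7% of all windows holding it at least once. TATAAA was found in Alas2 alone, on the opposite strand, against 12.4% of all windows. These are matches of letters in a short window and say nothing of which factors bind there.

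Libraries held between 27.2 M and 46.5 M gene counts, and the 9 members together took 0.0255% to 0.0609% of them. All C57BL/6 samples share 1 run identifier and all BALB/c samples another, so strain and flow cell cannot be told apart, while each genotype comparison lies within 1 run. Fgfr2 itself had means of 249 CPM in wild type and 361 CPM in mutant C57BL/6 (SDs of 35.8 and 20.6, n = 3 each). In BALB/c the means were 282 and 299.9 CPM (SDs of 11.4 and 25.0, n = 3 each). Gene counts do not show the allele, so this does not check the genotype. Osteoblast genes were abundant throughout, but C57BL/6 wild type replicate 1 stood apart, with 8 markers summing to 62209 CPM against 99405 to 142341 CPM in the other 11 samples. It also had the highest TMM factor (1.17) and the highest sum of nasal epithelium markers (673 CPM). Without it 5 of the 9 members were called for genotype in C57BL/6 in place of 7, and 5 in place of 9 for the difference of the genotype effect between strains. Such losses were not particular to replicate 1. Without C57BL/6 mutant replicate 6 Alad and Urod lost the genotype call. Without BALB/c mutant replicate 18 the count for the difference between strains was also 5. Epithelium from the nose was uneven: 9 olfactory and airway markers summed to 334 to 673 CPM in C57BL/6 wild type and 158 CPM in C57BL/6 mutant replicate 4, and to 2.37 to 3.61 CPM in the other 8 samples. Y-linked genes had at least 1000 counts in all 3 C57BL/6 wild type samples, in 1 C57BL/6 mutant, in 1 BALB/c wild type and in 1 BALB/c mutant sample. The other 6 samples held 4 to 60 such counts. The X-linked gene Xist held 12312 to 25578 counts in those 6 and 28 to 124 in the samples high in Y-linked counts. In C57BL/6 genotype thus goes in part with Y-linked counts, which also enters the comparison of genotype effects between strains.

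On the authors' RPKM scale, which divides by gene length and so allows genes to be compared, Urod had the highest mean level of the members over the 12 samples (32.3 RPKM). Alas2 followed at 25.5, then Alad at 21.6, Fech at 21.0, Slc25a37 at 17.2, Ppox at 16.02 and Cpox at 13.1 RPKM. Uros at 5.62 and Abcb10 at 5.33 RPKM were the lowest, and they held the last 2 places in every sample. Alas2 changed place the most. It ranked from the 1st to the 7th of the members depending on the sample, while Urod stayed 1st or 2nd in all 12. Alad and Fech overlapped in 3 of the 4 groups, as did Uros and Abcb10, so neither pair has a fixed order. Slc25a37 lay above Ppox in both BALB/c groups and below it in C57BL/6 mutants.

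**Figure D1:**
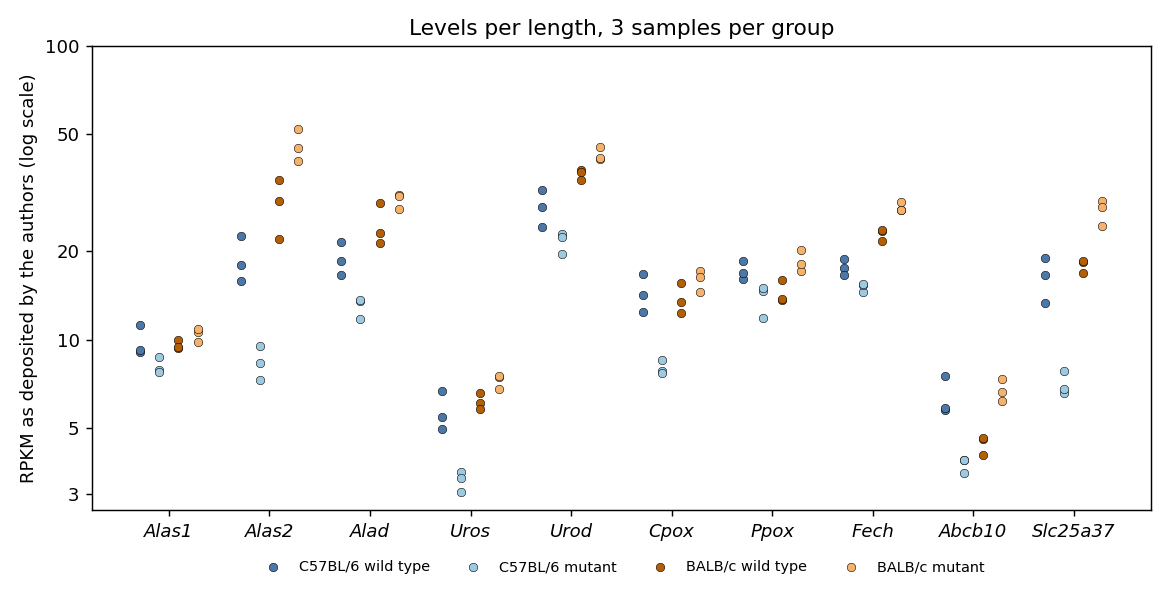
Levels of the 9 members and of Alas1 as RPKM deposited by the authors (vertical axis, log scale), 1 point per sample, in 4 groups of 3 samples marked by colour. Alas2 and Slc25a37 spread over the widest range between groups, and Uros and Abcb10 lie lowest of the members.

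The balance between the synthases moved with the groups. Alas1 varied less than every member, with group means from 29.2 to 31.98 CPM (SDs of 0.988 and 1.34, n = 3 each). It passed edgeR's test in 0 of the 5 comparisons, with 1 unadjusted p under 0.05 (the interaction between genotype and strain, 0.0318), and DESeq2 and limma-voom changed none of these. With total-count scaling it was lower in C57BL/6 mutants (log2 fold change -0.32, adjusted p = 0.0292). The ratio of Alas2 to Alas1 in RPKM was 1.40, 1.98 and 2.45 in the C57BL/6 wild type samples, and 0.835, 1.21 and 1.07 in the mutants of that strain. Alas2 thus exceeded Alas1 in every wild type C57BL/6 sample and lay close to it in the mutants. The ratio was 3.16, 3.49 and 2.32 in BALB/c wild type and 4.91, 4.12 and 4.11 in BALB/c mutant samples. No ratio of the BALB/c mutants overlapped those of any other group.

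In C57BL/6, 7 of the 9 members fell in the mutants and 0 rose (edgeR's quasi-likelihood test, Benjamini-Hochberg adjusted p under 0.05 over all genes). DESeq2 and limma-voom also called 7 lower and 0 higher, and 0 were higher at an unadjusted p under 0.05. Among all genes tested 12.6% fell, 11.3% rose and 23.9% were called in either direction. All 9 members had a negative log2 fold change, with a median of -0.60 against -0.0040 for all genes tested. CPM ranges did not overlap for 6 of the 9, all lower in mutants, against 21.9% of all genes lower without overlap. In whole tissue, fewer cells of a type and less RNA per cell cannot be told apart.

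Alas2, the first and rate-setting enzyme in red cell precursors (chromosome X, 150547417 to 150570622, mm10), stood at 35.4, 43.8 and 55.6 CPM in wild type C57BL/6 and at 18.6, 25.6 and 22.4 CPM in the mutants. Every mutant lay below every wild type sample. The log2 fold change was -1.02 (SE 0.191, adjusted p = 0.00419). Alas2 is X-linked. The only C57BL/6 mutant with at least 1000 Y-linked counts, at 22.4 CPM, lay between the other mutants. Every C57BL/6 wild type sample was above that minimum, so these values cannot separate genotype from the difference in Y-linked counts. The iron importer Slc25a37 (chromosome 14, 69241851 to 69285103) gave 89.2, 68.0 and 86.1 CPM in wild type and 35.2, 44.2 and 38.6 CPM in mutants. Its groups did not overlap, and its log2 fold change, -1.05, was the furthest from 0 of the members (SE 0.110, adjusted p = 0.000219). A share of 6.99% of its 50-base words also occurs in the predicted gene Gm16867, so a small part of its reads may have been placed uncertainly.

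The other transporter, Abcb10 (chromosome 8, 123952459 to 123983122), gave 36.8, 30.5 and 31.3 CPM in C57BL/6 wild type and 21.6, 22.8 and 20.6 CPM in mutants. The groups did not overlap, and the log2 fold change was -0.60 (SE 0.0869, adjusted p = 0.00109). Coproporphyrinogen oxidase, encoded by Cpox (chromosome 16, 58670208 to 58680389), followed with 60.3, 48.7 and 56.2 CPM against 31.9, 36.8 and 33.5 CPM. Each mutant value was again below each wild type value, and the log2 fold change was -0.69 (SE 0.107, adjusted p = 0.00153). Uros (chromosome 7, 133686330 to 133709295), whose enzyme closes the ring of the precursor, gave 13.8, 11.02 and 12.3 CPM against 8.22, 8.34 and 7.49 CPM. It was the least abundant member on this scale, yet its groups were clearly apart (log2 fold change -0.62, SE 0.105, adjusted p = 0.00233).

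The cytosolic enzymes Alad and Urod showed smaller differences. Alad (chromosome 4, 62509170 to 62520063) gave 32.9, 27.6 and 31.04 CPM in wild type and 23.4, 25.0 and 21.7 CPM in mutants of C57BL/6. Its groups did not overlap, and its log2 fold change was -0.39 (SE 0.104, adjusted p = 0.0213). The call was lost without wild type replicate 1 (log2 fold change -0.31, adjusted p = 0.0985) and without mutant replicate 6 (-0.34, adjusted p = 0.0805). It was also lost with a term for Y-linked counts (-0.33, adjusted p = 0.0881). Urod (chromosome 4, 116990217 to 116994375), which trims the side chains of the ring, gave 43.9, 35.5 and 42.1 CPM against 35.2, 31.9 and 36.4 CPM. The groups overlapped, and the log2 fold change of -0.23 was just past the threshold (SE 0.0777, adjusted p = 0.0483). Leaving out 1 sample ended the Urod call in 5 of 6 fits, all except that without wild type replicate 2. The adjusted p over the 6 fits ran from 0.00992 to 0.229. The Urod call was also lost with the Y-linked term (-0.19, adjusted p = 0.166), with RLE size factors in edgeR (adjusted p = 0.0521), without a filter on low counts (0.0634) and with only these 2 groups in the fit (0.137).

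The last 2 enzymes did not pass the test in C57BL/6. Ppox (chromosome 1, 171276992 to 171281186) gave 38.1, 36.0 and 38.4 CPM in wild type and 34.2, 29.3 and 37.1 CPM in mutants, which overlapped (log2 fold change -0.16, SE 0.0925, adjusted p = 0.219). Fech, whose enzyme places iron in the ring, gave 57.8, 59.3 and 67.9 CPM against 54.3, 60.6 and 61.0 CPM. These groups also overlapped (log2 fold change -0.07, SE 0.0701, adjusted p = 0.476). When libraries were scaled by their total counts alone, the median of all genes shifted by -0.20, Ppox and Fech also passed the threshold, and all 9 members were called lower.

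**Figure D2:**
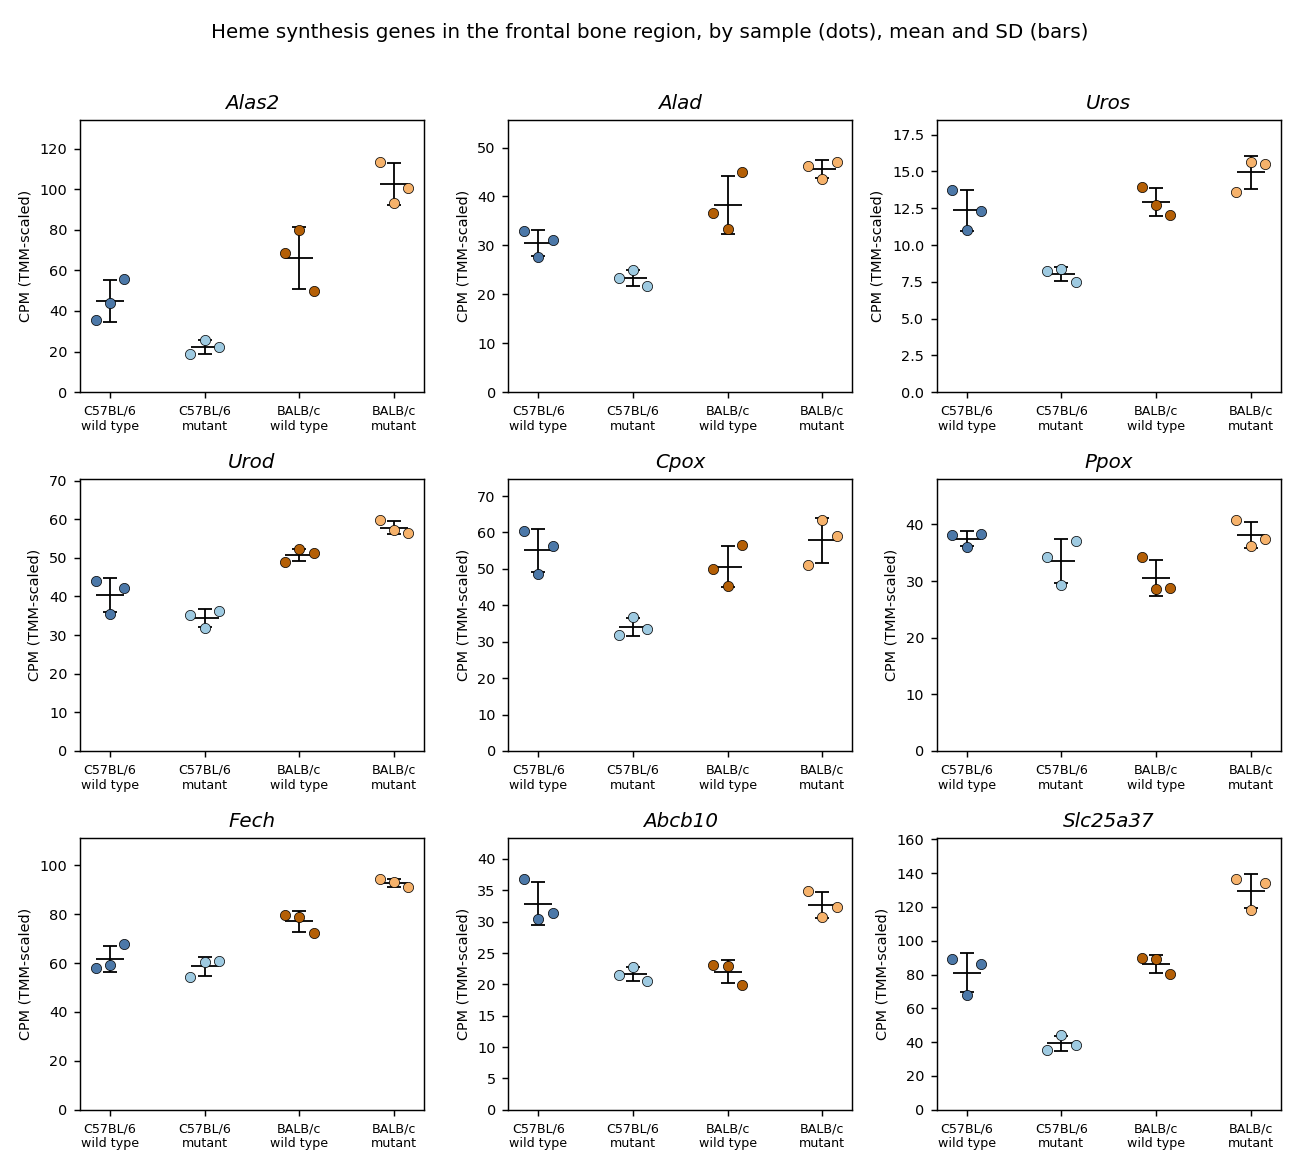
CPM scaled by TMM (vertical axis of each panel, starting at 0) of each member in the 4 groups, with dots for samples, long bars for group means and short bars 1 SD away. In C57BL/6 the mutants lie below the wild type without overlap for 6 of the 9 members, and in BALB/c the mutant means lie above the wild type means in all 9 panels.

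In BALB/c, mutants had higher means for all 9 members, but only Abcb10 passed the test across all genes. Of all genes tested 0.136% were called in this comparison and 0.0926% were called higher. The 9 log2 fold changes ran from 0.19 to 0.63, with a median of 0.27. At an unadjusted p under 0.05 there were 7 members, beside 1901 of the 16190 genes. The ranges did not overlap for 6 members, all higher in mutants, against 9.93% of all genes higher without overlap.

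Abcb10 gave 23.1, 23.0 and 19.9 CPM in BALB/c wild type and 34.8, 30.8 and 32.4 CPM in BALB/c mutants. All mutants were above all wild type samples, and the log2 fold change was 0.57 (SE 0.0874, adjusted p = 0.0398). This call held in 1 of 6 fits that left out a sample, that without wild type replicate 14. The log2 fold change stayed between 0.50 and 0.61, and the adjusted p reached 0.197 without wild type replicate 15. It was 0.0902 with total-count scaling and 0.0569 with a term for Y-linked counts. Without wild type replicate 13 it was 0.157, and it was 0.0746, 0.0784 and 0.171 without mutant replicates 16, 17 and 18.

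Slc25a37 gave 89.5, 89.0 and 80.3 CPM in BALB/c wild type and 136, 118 and 134 CPM in the mutants. The groups were apart, but the log2 fold change, 0.59, did not pass the threshold (SE 0.108, adjusted p = 0.0664). It passed with DESeq2, with limma-voom, without a filter on low counts and with only these 2 groups in the fit. Alas2 gave 68.7, 79.8 and 49.8 CPM in wild type and 114, 93.1 and 101 CPM in mutants of BALB/c. The lowest wild type value came from the only wild type BALB/c sample with at least 1000 Y-linked counts, and the highest mutant value from the only BALB/c mutant above that minimum. The groups did not overlap, and the log2 fold change was 0.63 (SE 0.185, adjusted p = 0.209). It passed with DESeq2 (0.64, adjusted p = 0.0238).

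The remaining enzymes differed less in BALB/c, and none passed edgeR's test. Fech gave 79.9, 78.9 and 72.2 CPM in wild type and 94.3, 93.0 and 91.0 CPM in mutants, without overlap (log2 fold change 0.27, adjusted p = 0.157), and passed with DESeq2 (0.27, adjusted p = 0.0270). Ppox gave 34.2, 28.7 and 28.8 CPM against 40.7, 36.2 and 37.5 CPM, also without overlap (0.32, adjusted p = 0.204). Urod, at 49.0, 52.2 and 51.2 CPM against 59.7, 57.2 and 56.5 CPM, was the 6th member without overlap (0.19, adjusted p = 0.369). Overlap was seen for the other 3. Alad gave 36.6, 33.3 and 44.9 CPM against 46.3, 43.6 and 47.1 CPM, with 1 high wild type sample (0.25, adjusted p = 0.362). Uros gave 13.97, 12.7 and 12.1 CPM against 13.6, 15.7 and 15.5 CPM (0.21, adjusted p = 0.469). For Cpox the values were 49.96, 45.3 and 56.6 CPM against 51.0, 63.3 and 59.1 CPM, with wild type replicate 15 above the lowest mutant (0.19, adjusted p = 0.536).

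In edgeR's main fit the genotype difference itself differed between the strains for all 9 members. The interaction (the mutant minus wild type log2 difference in BALB/c less that in C57BL/6) was positive and past the threshold for each of them, while 10% of all genes were called and 5.46% called positive. It was 1.65 for Alas2 (SE 0.266, adjusted p = 0.00503), 1.63 for Slc25a37 (SE 0.154, adjusted p = 0.000206) and 1.17 for Abcb10 (SE 0.123, adjusted p = 0.000408). These 3 genes had the widest gap between strains. Cpox and Uros came next at 0.89 (adjusted p = 0.00659) and 0.83 (adjusted p = 0.00775). Alad stood at 0.64 (adjusted p = 0.0227), Ppox at 0.48 (adjusted p = 0.0405), Urod at 0.42 (adjusted p = 0.0358) and Fech at 0.34 (adjusted p = 0.0487). Leaving out 1 sample at a time gave 12 fits, in which Alas2, Slc25a37, Abcb10, Cpox and Uros passed every time. Alad passed in 8 and missed it without C57BL/6 wild type replicate 1 (adjusted p = 0.0536) or mutant replicate 6 (0.0572), and without BALB/c wild type replicate 13 (0.0514) or mutant replicate 18 (0.0537). Ppox passed in 3, Urod in 2 and Fech in 0 of the 12. Fech also missed it in edgeR with RLE size factors (adjusted p = 0.0526) and without a filter on low counts (0.0561). With a term for Y-linked counts those first 5 members passed and the other 4 did not, with adjusted p of 0.0514 for Alad and 0.0854 for Fech. Alas1 did not pass (0.21, SE 0.0883, adjusted p = 0.130).

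**Figure D3:**
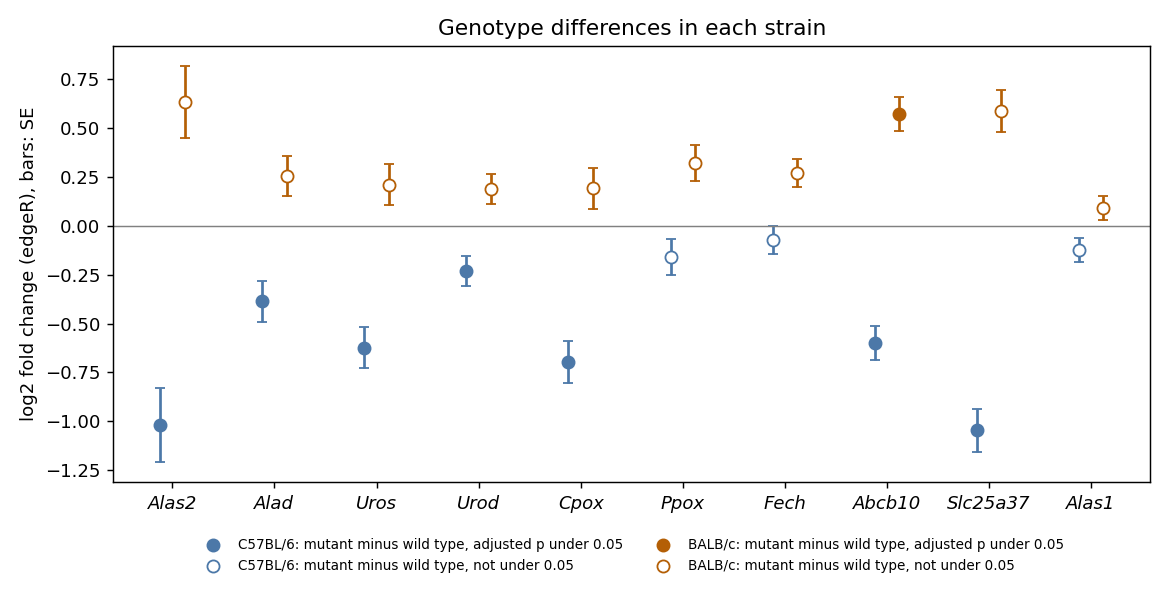
Log2 fold change of mutant over wild type from edgeR (vertical axis) for the 9 members and Alas1, in C57BL/6 and BALB/c, with bars of 1 SE and filled points where the adjusted p was under 0.05. All 9 members are below 0 in C57BL/6 and above 0 in BALB/c, with 7 filled points in the first strain and 1 in the second.

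Between wild types the strains differed in no single direction. Of the 9 members 4 were higher in BALB/c (Alas2, Alad, Urod and Fech) and 2 were lower (Ppox and Abcb10), while 22.8% of all genes were called higher, 25.6% lower and 48.5% in either direction. The median log2 difference, BALB/c minus C57BL/6, was 0.09. Alas2 was 0.56 higher (SE 0.187, adjusted p = 0.0277), although the lowest BALB/c sample, at 49.8 CPM, lay below the highest C57BL/6 sample, at 55.6 CPM. Abcb10 went the other way, 0.58 lower in BALB/c (SE 0.0875, adjusted p = 0.000313), and Ppox was 0.30 lower (adjusted p = 0.0200). Fech (0.32, adjusted p = 0.00303), Urod (0.33, adjusted p = 0.00485) and Alad (0.33, adjusted p = 0.0214) made up the higher group. Uros at 0.06, Slc25a37 at 0.09 and Cpox at -0.12 did not pass the test. With 1 sample left out, the Alas2 call was lost without C57BL/6 replicate 1 or 2 and without BALB/c replicate 13 or 14 (log2 differences of 0.40 to 0.54). The Ppox call was lost without C57BL/6 replicate 1 or 3 and without BALB/c replicate 14 or 15 (-0.28 to -0.25). Alad lost its call without C57BL/6 replicate 2 (0.26) or BALB/c replicate 15 (0.20). Total-count scaling ended the calls of Alad (0.21, adjusted p = 0.202) and Urod (0.21, adjusted p = 0.136). A term for Y-linked counts ended those of Alas2 (0.49, adjusted p = 0.105) and Ppox (-0.24, adjusted p = 0.0936).

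Between mutants 8 of the 9 members were higher in BALB/c, against 18% of all genes called higher and 36.9% called either way. Each of the 8 stayed called in all 6 fits that left out a sample, and their CPM ranges did not overlap, as for 25.4% of all genes higher in BALB/c mutants. Alas2 had means of 22.2 CPM in C57BL/6 mutants and 102 CPM in BALB/c mutants (SDs of 3.52 and 10.4, n = 3 each), a 4.62-fold difference in edgeR (adjusted p = 8.5e-06). For Slc25a37 the means were 39.3 and 129.5 CPM (SDs of 4.56 and 10.1, n = 3 each), a 3.29-fold difference in edgeR (adjusted p = 7.67e-07). The other 6 differed by 1.51-fold (Abcb10) to 1.95-fold (Alad). Ppox, with means of 33.5 and 38.2 CPM (SDs of 3.96 and 2.30, n = 3 each), did not pass (adjusted p = 0.135). The strain comparisons share samples with the genotype comparisons, and strain goes with the flow cell.

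Red cell membrane genes moved in the same comparisons, and each of them by more than any member in C57BL/6. All 11 measured genes of the red cell membrane list fell in C57BL/6 mutants, with a median log2 fold change of -1.84. Their summed level was 257 to 346 CPM in wild type and 66.5 to 97.6 CPM in mutants. Rhag (-2.11), the anion exchanger Slc4a1 (-2.08) and alpha spectrin (Spna1, -2.05) were among those with the largest differences. The red cell transcription list fell in 8 of 8 genes with a median of -1.09, led by Klf1 (-2.51), Gata1 (-2.29), Gfi1b (-2.08) and Nfe2 (-1.24). In BALB/c 3 of the 11 membrane genes rose (Rhd by 0.86, Ermap by 0.78 and beta spectrin, Spnb1, by 0.70). Among all genes tested 0.0926% were called higher there. DESeq2 called 7 of the 11 higher and limma-voom 4, and 8 were higher at an unadjusted p under 0.05 in edgeR. In BALB/c 0 of the 8 transcription genes passed in edgeR. At an unadjusted p under 0.05 there were 7 of these 8 higher, and DESeq2 called 2 and limma-voom 0. The membrane sum there was 292 to 415 CPM in wild type and 548 to 645 CPM in mutants. Neutrophil genes fell in 5 of 8, megakaryocyte genes in 4 of 5 and genes of dividing cells in 6 of 6 in C57BL/6 mutants, while 6 of 8 osteoblast and 5 of 5 osteoclast genes rose. Of all genes tested 12.6% fell and 11.3% rose in that comparison. In BALB/c mutants 1 of the 6 dividing cell genes rose in edgeR (Plk1, 0.48, adjusted p = 0.0369), against 3 in DESeq2 and 2 in limma-voom. Their summed level was 321 to 376 CPM in wild type and 439 to 455 CPM in mutants there. The neutrophil sum was 561 to 659 CPM in wild type and 789 to 865 CPM in mutants, and the megakaryocyte sum 33.4 to 39.8 and 40.9 to 59.2 CPM, so none of these 3 sums overlapped in BALB/c. No single neutrophil or megakaryocyte gene passed there in edgeR, with 3 of each higher at an unadjusted p under 0.05. DESeq2 called 0 and 1 of them, and limma-voom 0 and 0. The part of any of these gene groups in the member values was not tested.

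Set against the summed red cell membrane genes, all 9 members changed less with genotype in both strains. The log2 ratio of each member's CPM to the summed membrane list was higher in C57BL/6 mutants than in wild type for all 9. For Slc25a37 the ratio was 0.85 higher and for Alas2 0.88 higher, the least of the 9. Every member of a sample is divided by the same sum, so the order of members repeats that of their fold changes. For the other 7 it was 1.20 (Cpox) to 1.82 (Fech) higher. In BALB/c mutants the ratio was lower than in wild type for all 9, by the least for Alas2 (-0.08), Slc25a37 (-0.15) and Abcb10 (-0.17), and from -0.41 (Ppox) to -0.55 (Urod) for the others. With the transcription list as the denominator the C57BL/6 difference was -0.06 for Alas2 and -0.10 for Slc25a37, and 0.25 (Cpox) to 0.87 (Fech) for the other 7. The BALB/c difference then changed sign for 3 members, to 0.25 for Alas2, 0.18 for Slc25a37 and 0.17 for Abcb10, and ran from -0.22 (Urod) to -0.08 (Ppox) for the other 6. These are descriptions with no test.

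Likeness to Alas2 was measured as the root mean square difference of log2 CPM over the 12 samples after removing each gene's mean. This measure depends on the size of the differences between samples as well as on their pattern. Slc25a37 was the nearest member at 0.31. Alad was at 0.54, Uros at 0.56, Urod at 0.59, Fech at 0.59, Cpox at 0.64 and Abcb10 at 0.74, and Ppox was the furthest at 0.82, close to Alas1 at 0.81. The non-member genes nearest to Alas2 included E2f2 at 0.24, Dhrs11 at 0.25 and Ube2l6 at 0.29. E2f2 encodes a cell cycle transcription factor. Its log2 fold change was -1.30 in C57BL/6 mutants and 0.60 in BALB/c mutants. These genes were picked for their likeness to Alas2 over the same 12 samples, so their directions follow from the choice and carry no test.

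Globins, the main users of red cell heme, were counted in part. Of 9 listed globin genes 8 were in the table and 5 were tested, and nearly all of their counts lay on the adult beta globin entry Beta-s. Hba-a1 held at most 60 and Hba-a2 at most 220 counts in a sample, against 4148 to 44684 for Beta-s. These are near-identical copies whose reads can be split or dropped in counting, so their levels are uncertain. Beta-s gave 237, 253 and 342 CPM in C57BL/6 wild type and 115, 126 and 112 CPM in mutants, and it was the 1 globin that fell (-1.24, SE 0.172, adjusted p = 0.000906). In BALB/c it gave 838, 903 and 572 CPM in wild type and 1175, 961 and 1099 CPM in mutants, with no overlap but no call (0.48, adjusted p = 0.291). Its lowest BALB/c wild type value came from the same sample as the lowest one of Alas2. The interaction of Beta-s was 1.72 (adjusted p = 0.00253).

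The wider iron and heme genes were mixed in direction. In C57BL/6 the list of heme and iron transport had 4 of 13 genes higher and 3 lower, with a median of 0.10. For this and the next lists, 11.3% of all genes tested were called higher and 12.6% lower. Slc25a38, the mitochondrial glycine carrier that supplies ALA synthase, was among the lower ones (-0.47, adjusted p = 0.00543). Its means were 14.5 CPM in wild type and 10.5 CPM in mutants (SDs of 0.908 and 0.865, n = 3 each), and its interaction was 0.78 (adjusted p = 0.00596). Of 13 tested genes of iron uptake and storage 6 rose and 0 fell, in edgeR and DESeq2 alike, including the iron exporter Slc40a1 (0.40), the ferritin receptor Ncoa4 (0.28) and the ferritin light chain Ftl1 (0.24). The transferrin receptor Tfrc, which takes up most iron for red cell precursors, had means of 119 and 109.8 CPM (SDs of 12.2 and 13.002, n = 3 each) and did not pass (-0.12, adjusted p = 0.430). Iron-sulfur cluster assembly had 3 of 14 genes higher (Fdxr by 0.45, Iscu by 0.31 and Isca1 by 0.22) and 0 lower.

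Heme breakdown and scavenging had 1 of 8 genes higher in C57BL/6 mutants, the hemoglobin receptor Cd163 of macrophages (0.87, adjusted p = 0.00839), and 1 lower, biliverdin reductase B (Blvrb, -0.51, adjusted p = 0.00428). These shares are near those of all genes tested, 11.3% higher and 12.6% lower. DESeq2 and limma-voom each called 2 of the 8 higher and 1 lower. Heme oxygenase 1 (Hmox1) did not pass, with means of 40.2 and 44.7 CPM (SDs of 3.22 and 3.06, n = 3 each). The macrophage marker list, which also holds Cd163, had 3 of 8 genes higher. Among 8 partners of the ALA synthases, Alas1 included, only the heme-sensing repressor Bach1 passed, with a log2 fold change of 0.29 (adjusted p = 0.0136). By comparison, 23.9% of all genes were called in either direction. Among 9 genes of other heme-using proteins and their partners, Cyc1 (0.24) and Sdhc (0.19) were higher and Cyb5 (-0.54) and Por (-0.64) lower. Por encodes a flavoprotein without heme that passes electrons to cytochromes P450. In BALB/c, where 0.136% of all genes passed in edgeR, 0 of the 65 tested genes of these 6 lists passed in edgeR, DESeq2 or limma-voom. At an unadjusted p under 0.05 in edgeR 9 were higher and 1 lower. Slc25a38 was among the 9 (0.32, unadjusted p = 0.00475 in edgeR's fit).

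**Figure D4:**
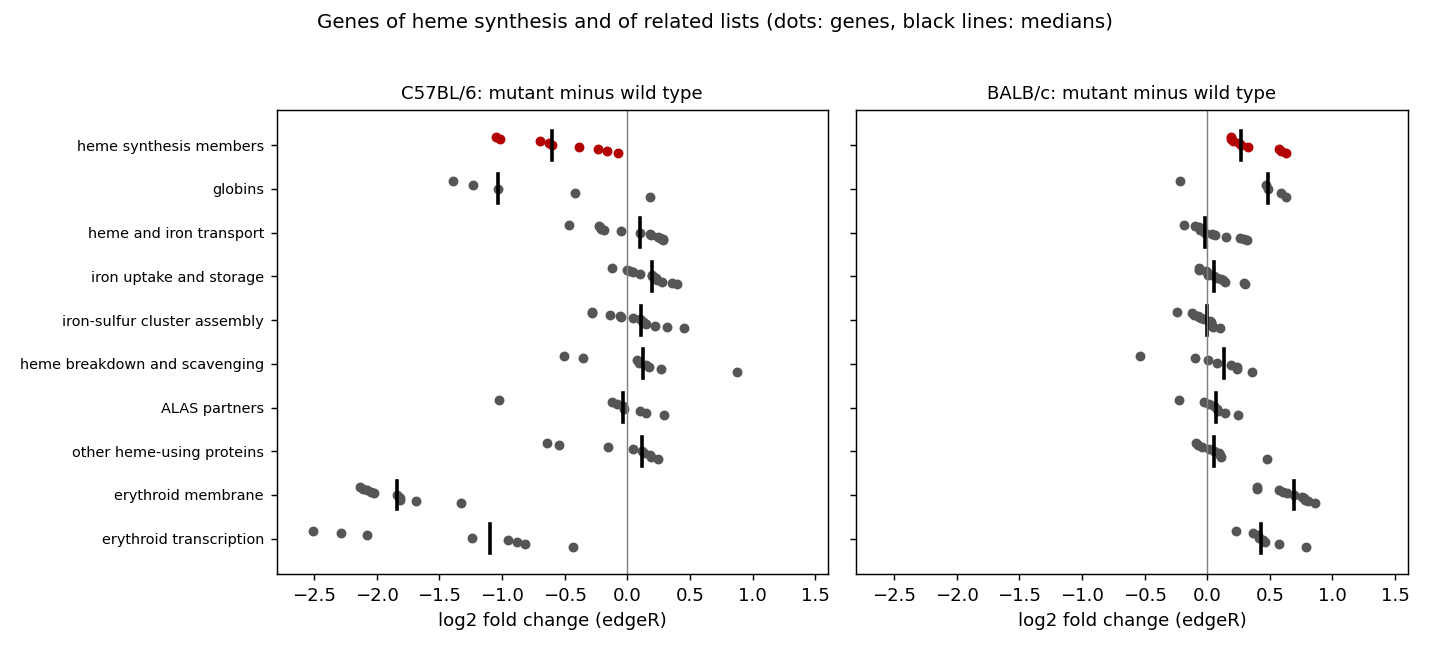
Log2 fold change of mutant over wild type (horizontal axis) in C57BL/6 (left) and BALB/c (right) for each tested gene of 10 lists (dots), with black lines at list medians. The members have a median of -0.60 on the left and 0.27 on the right, between the red cell membrane genes (-1.84 and 0.70) and the wider iron and heme lists. Medians of those wider lists run from -0.03 to 0.20 on the left and from -0.02 to 0.13 on the right.

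The authors' deposited table of DESeq2 comparisons gives log2 fold changes of the same sign for all 9 members in each genotype comparison. In C57BL/6 the authors' deposited table lists q under 0.05 for 7 members, with log2 fold changes from -1.02 (Slc25a37) to -0.23 (Urod), and in BALB/c for 3. These 3 are Slc25a37 (0.58, q = 2.83e-06), Abcb10 (0.57, q = 2.99e-05) and Fech (0.28, q = 0.0310) in the authors' deposited table. Its value for Alas2 is -0.83 in C57BL/6 (q = 0.00263) and 0.54 in BALB/c (q = 0.304).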

How the data were processed

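RNA sequencing of 12 samples was analysed from the authors' deposited gene counts. Per the submitters' processing notes, the tools included bcl2fastq, TopHat2 2.0.6, HTSeq and DESeq2, with genome build mm10. Their roles and the strand setting are not given in the sources used here. Every deposited count is even (0 odd values in each sample). How reads were counted is not given in the sources used here; if both mates of a pair were counted, the totals and counts printed here overstate the number of fragments. The deposited table also holds RPKM values by the authors, used here for levels between genes. The authors' comparison table gives log2 fold changes with p-values and q-values. Each column of it used here belongs to a comparison of groups and not to a single sample. Genes were filtered with filterByExpr (minimum count 10, minimum total count 15), scaled by TMM and fitted in 1 model of 4 group means with edgeR 4.0.16 in R 4.3.3 (quasi-likelihood test, Benjamini-Hochberg adjustment over 16190 genes, threshold 0.05, two-sided). CPM uses TMM-scaled libraries, and log2 CPM a prior count of 2. The script was tested on simulated data. Alternatives were DESeq2 1.42.0, limma-voom (limma 3.58.1), RLE and total-count scaling, scaling without globins, no filter, a stricter filter (1 CPM in 3 samples), only the 2 groups compared, and leaving out each sample. Halved counts and a term for Y-linked counts (at least 1000) were added after seeing the data.

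The members and the 18 gene lists were chosen with earlier results of these data known. Members, Alas1 and Fgfr2 were named whatever they showed. From each list up to 4 called genes per direction with the largest log2 fold change could be named. Tfrc, Hmox1, Hba-a1 and Hba-a2 were named outside this rule, after their values were seen. The 5 genes nearest to Alas2 were to be named, and 2 of them are not reported here. List symbols missing from the table were matched through RefSeq synonyms, and 4 of 156 list entries had no match. Upstream sequences are RefSeq's for GRCm38.p6, and coordinates of genes are those of the authors' table.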

Additional observations from a re-analysis of the deposited data

Results flagged for a closer look

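The signed mutant minus wild type difference was below 0 in C57BL/6 and above 0 in BALB/c for each of the 9 members, and differed between the strains by the interaction term of edgeR's fit across all genes, which called 10% of all genes and 5.46% positive. On the log2 scale the interaction was 1.65 for Alas2 (adjusted p = 0.00503), 1.63 for Slc25a37 (adjusted p = 0.000206), 1.17 for Abcb10 (adjusted p = 0.000408), 0.89 for Cpox (adjusted p = 0.00659) and 0.83 for Uros (adjusted p = 0.00775). It was 0.64 for Alad (adjusted p = 0.0227), 0.48 for Ppox (adjusted p = 0.0405), 0.42 for Urod (adjusted p = 0.0358) and 0.34 for Fech (adjusted p = 0.0487). These last 4 did not pass with the Y-linked term, and of 12 fits with 1 sample left out Alad passed in 8, Ppox in 3, Urod in 2 and Fech in 0. All 3 mutants lay below all 3 wild type samples in C57BL/6, and above them in BALB/c, for Alas2, Slc25a37 and Abcb10. For Ppox the log2 fold change was -0.16 in C57BL/6 and 0.32 in BALB/c, and for Fech -0.07 and 0.27, with overlapping groups in C57BL/6 for both. The red cell membrane genes, whose summed level moved in the same comparisons, had interactions from 1.93 to 2.85. Their part in the member values was not tested.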

How the results depend on the processing

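No paired analysis was possible because the groups share no replicate numbers. Of 441 member values under other settings, 412 kept their direction and side of the threshold, 17 lost a call, 9 gained one and 3 changed sign. Those 3 were differences between wild types near 0: Uros at -0.0582 and Slc25a37 at -0.0315 with total-count scaling, and Uros at -0.0465 with the Y-linked term. Of 324 values with 1 sample left out, 264 kept direction and side, 57 lost a call and 3 changed sign: Fech in C57BL/6 (-0.105 to 0.000898), and Uros (-0.0100 to 0.152) and Slc25a37 (-0.0204 to 0.166) between wild types. Members called with 1 sample left out numbered 5 to 7 for genotype in C57BL/6, 0 to 1 in BALB/c, 4 to 5 between wild types, 8 to 8 between mutants and 5 to 8 for the interaction. In BALB/c the main count of 1 became 4 with DESeq2, 2 with limma-voom, 2 without a filter, 2 with only the groups compared, 0 with total-count scaling and 0 with the Y-linked term. The interaction count of 9 became 5 with the Y-linked term, and the cause was not tested. Fech also lost its interaction call with RLE size factors and without a filter (0.34 in both). In C57BL/6 the member count ran from 5 to 9 over the other settings. Total-count scaling shifted the median of all genes by -0.20 in C57BL/6, -0.11 between wild types, 0.12 between mutants and 0.23 in the interaction.

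Counts over all genes moved more. In C57BL/6 3867 genes became 1458 with only the groups compared, and 1724 to 4833 with 1 sample left out. In BALB/c 22 became 4 to 323, and 0 to 95 with 1 sample left out. The interaction's 1626 became 1052 to 2686, and 624 to 3129 with 1 sample left out. The median member ratio to red cell membrane genes, mutant minus wild type, was 1.29 in C57BL/6 and -0.47 in BALB/c. With the red cell transcription list as denominator, whose own median change in C57BL/6 was -1.09 in place of -1.84, it was 0.34 and -0.13, and in BALB/c the difference turned positive for Alas2 (0.25), Slc25a37 (0.18) and Abcb10 (0.17).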

Other observations

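Among the marker lists, skeletal muscle genes were high in few samples. Their 6 genes summed to 1.26 to 3.56 CPM in C57BL/6 mutants. The sum reached 61.5 CPM in 1 C57BL/6 wild type sample, and 365 and 21.8 CPM in BALB/c mutant replicates 16 and 17.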
